A study of Mus musculus with 6 samples.

Results

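The kinesin genes described here are the 43 protein-coding genes whose symbol in GENCODE release M21 is Kif or Kifc followed by a number, among 54532 genes in the deposited table, of which 21995 are protein-coding. The rule used names only, but it was set with earlier results of these data known. By textbook role, 15 of them code for motors of the spindle and of cytokinesis, 18 for motors of cargo transport and 9 for motors of cilia, flagella and signalling. The remaining symbol, Kif1bp, belongs to a kinesin-binding protein that is not itself a motor. RNA was taken from whole testes of mice at postnatal day 9, and poly(A) RNA was sequenced from 3 wild-type and 3 Ppp6r3 conditional knockout (cKO) libraries. The labels give genotype, tissue and library number. They name neither the Cre driver nor the deleted exons, nor strain or treatment, so which cells lost Ppp6r3 cannot be told from them. They also do not say whether each library is a separate animal, so the tests see only the spread of these libraries, and p-values may measure technical spread. Ppp6r3 codes for a regulatory subunit of protein phosphatase PP6, and the study concerns its place in the differentiation of spermatogonia.

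Kinesins are proteins that bind microtubules, and most of them use ATP to step along these filaments. Spindle kinesins push the poles apart, focus them, move chromosomes and build the midzone where the cell divides, while transport kinesins carry vesicles, organelles and the protein trains that build cilia. A few members do not walk: some take microtubules apart at their ends, and Kif26a binds them without ATPase activity. In the testis, dividing spermatogonia use the spindle members, and motors of the flagellum come into use later, as sperm form.

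Expression is given in FPKM, fragments scaled to exon length and to library depth, which allows levels of different genes to be set side by side. The library depth implied by the steps of the FPKM values was 15970909 to 16606868 fragments. The fragments recovered gene by gene summed to 16186721 to 16959113 a library. Ppp6r3 stood at 20.8, 21.3 and 21 FPKM in wild-type libraries and at 15.8, 15.3 and 14.9 FPKM in cKO, 21.02 ± 0.257 against 15.4 ± 0.459 (SD, n = 3), a log2 difference of -0.45 (SE 0.042, limma adjusted p = 0.000697). Over all genes tested, 7.65% rose and 7.83% fell, and the marker lists used here were chosen with earlier results of these data known. All 10 meiotic germ cell genes tested fell. Their summed level was 400.2 to 406.7 FPKM in wild-type libraries and 199.5 to 205.6 in cKO. Genes of undifferentiated spermatogonia rose in 5 of 8 and summed to 53.0 to 55.1 against 69.4 to 76.7 FPKM. Those of differentiating spermatogonia were mixed: of 6, 3 rose and 1 fell, with sums of 178.5 to 183.3 against 185.0 to 198.9 FPKM. Of the 7 Sertoli cell genes, 1 rose and 2 fell, with sums of 505.7 to 521.5 and 486.7 to 549.3 FPKM. The part of these shifts in any kinesin result was not tested, and in whole tissue fewer cells of a type cannot be told apart from less RNA per cell.

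Of the 43 kinesin symbols, 40 had at least 10 fragments in at least 3 libraries and were tested; Kif28, Kif12 and Kif2b, at 0 to 7, 0 to 2 and 0 to 2 fragments, were not. Kinesins moved both ways: 7 rose in the cKO testis, 4 fell and 29 did not pass an adjusted p of 0.05 in limma over all 17667 genes tested. Thus 27.5% of the tested kinesins changed against 15.5% of all genes tested, 17.5% rose against 7.65% and 10% fell against 7.83%. Well-measured genes pass more often: among the 11882 genes tested with a mean of 1 to 30 FPKM, 17.7% changed, against 28.9% of the 38 kinesins in that range. The libraries of the 2 genotypes did not overlap for 22 kinesins (55.0%), 14 higher and 8 lower in cKO, against 36.9% of all genes tested. The median log2 difference was 0.03 over the kinesins and 0.00 over all genes (0.002735). After correction for GC content and transcript length, 4 kinesins rose and 5 fell. Over all 17667 genes, 3274 changed with that correction, against 2735 without it, and of these 1511 rose and 1763 fell. With any single library left out, 3 to 5 rose and 1 or 2 fell. Leaving out wild-type replicate 1, 2 or 3 or cKO replicate 3 left 3 that rose, without cKO replicate 1 there were 4, and without cKO replicate 2 there were 5. Kif26a, Kif20a, Kif1c and Kif23 were called in the same direction in all 15 alternatives.

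**Figure D1:**
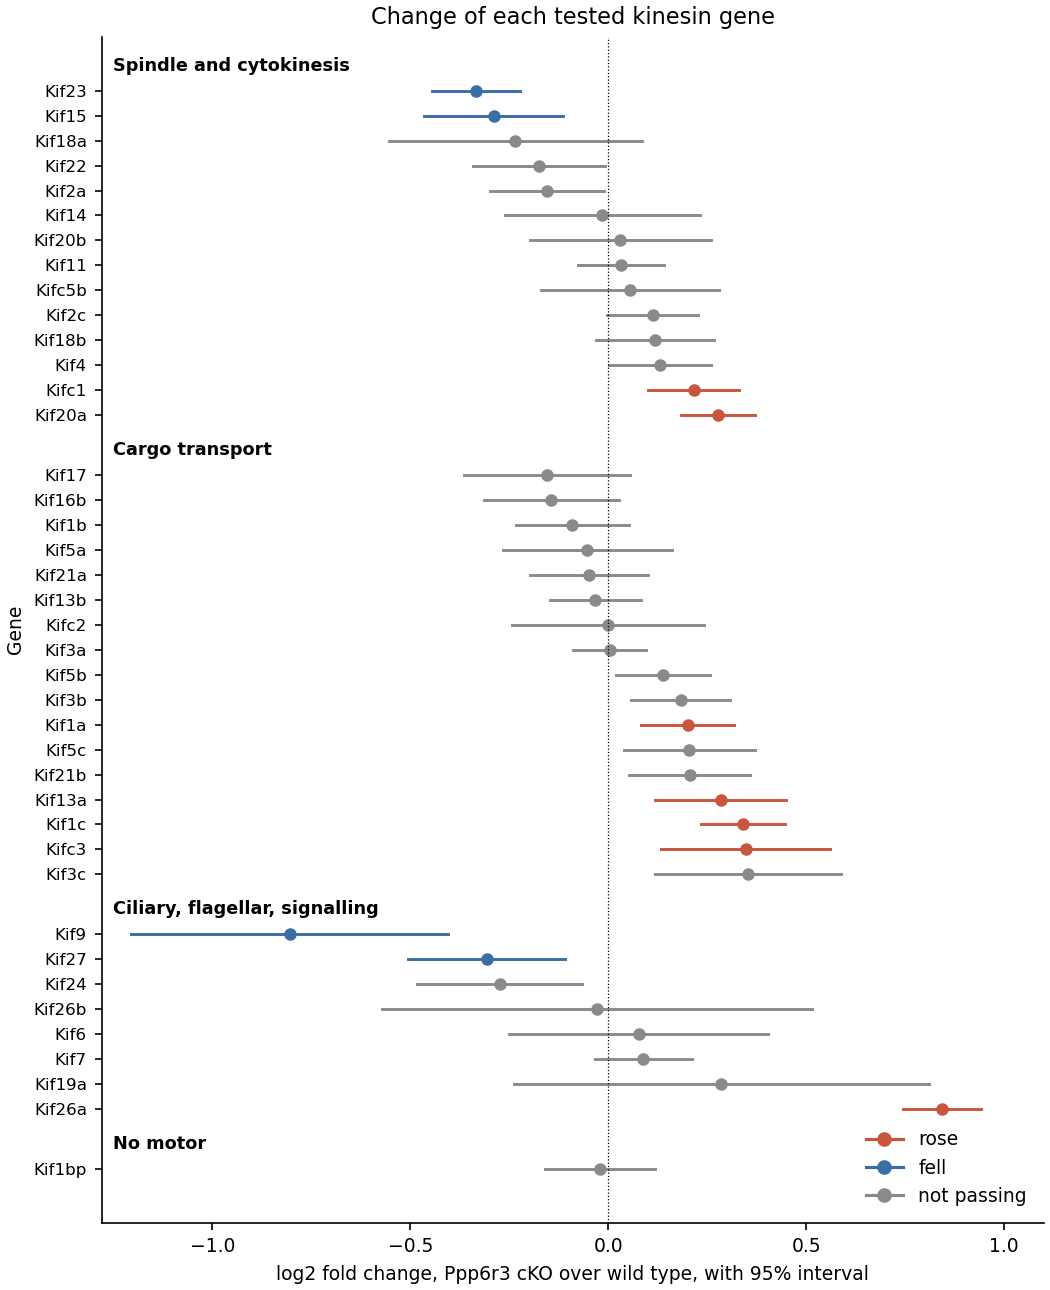
Log2 difference of cKO from wild type (x axis, on the log2(FPKM + 0.1) scale) with its 95% interval for each of the 40 tested kinesin genes (y axis), coloured by call. Changes run from -0.80 (Kif9) to 0.84 (Kif26a), and the 29 genes that did not pass lie nearer 0 or have wide intervals.

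**Figure D2:**
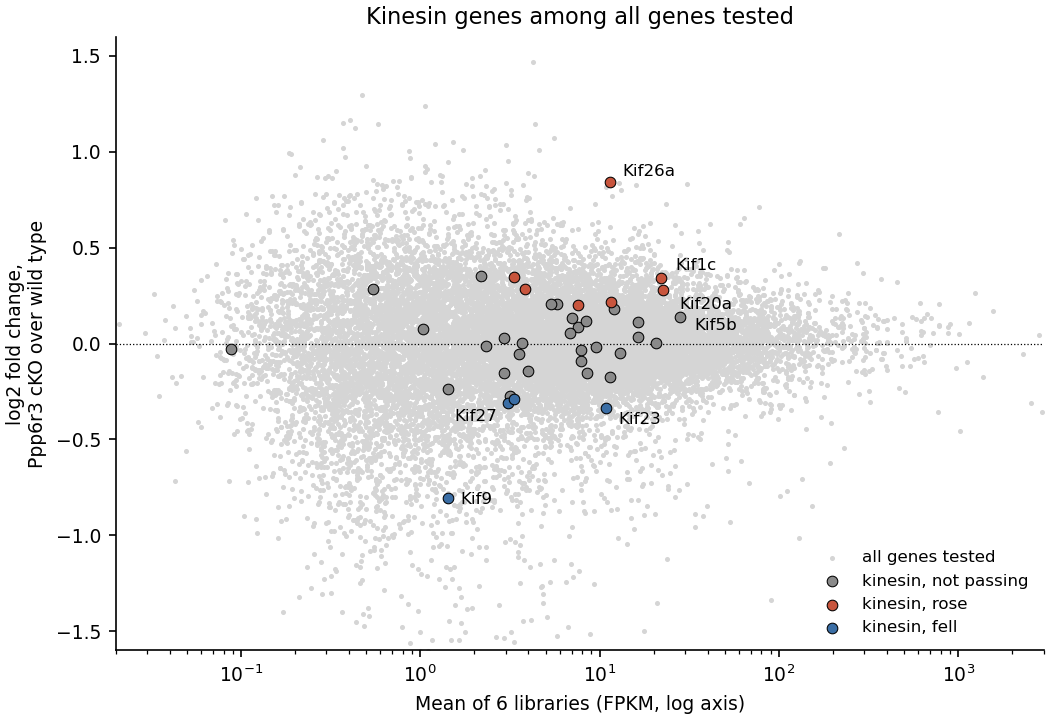
Log2 difference (y axis) against the mean of 6 libraries in FPKM (x axis, log scale) for every gene tested in grey, with kinesins in colour by call; 36 genes lie outside the plot. Kif26a sits at the upper edge of the genes at its level, and Kif1c and Kif20a are among the most abundant kinesins.

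The most abundant kinesin in both genotypes was Kif5b, the widely expressed heavy chain of conventional kinesin. In wild type, Kif3a, Kif20a and Kif1c came next. The wild-type libraries of Kif3a (19.9 to 20.9 FPKM) and Kif20a (20.04 to 21 FPKM) overlapped, whereas Kif1c (18.4 to 19.8 FPKM) lay just under Kif3a and under Kif20a. In cKO the order of these 3 was Kif20a, Kif1c and Kif3a, with Kif20a and Kif1c overlapping (24.3 to 25.2 and 23.9 to 25.2 FPKM) and Kif3a below both (20.4 to 20.8 FPKM). Kif11 and Kif2c overlapped each other in both genotypes. Kif26a moved from place 15 in wild type to place 7 in cKO, and Kif23 from place 9 to place 12.

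Among the spindle and cytokinesis motors, 14 were tested: Kif20a and Kifc1 rose, Kif23 and Kif15 fell, and 10 did not pass. Of these 14, 28.6% changed, against 15.5% of all genes tested. The summed level of the spindle motors was 128.3 ± 0.49 FPKM in wild-type libraries and 132.0 ± 0.56 FPKM in cKO (SD, n = 3). It was higher in every cKO library, but this was not a rise shared by the members. The mean of Kif20a alone went from 20.39 FPKM in wild type to 24.74 in cKO, a wider gap than that of the sum. The mean of Kif23 went from 12.09 to 9.57 FPKM. The group's median log2 difference was 0.03. Proliferation genes beside them were mixed, with 1 of 7 higher and 3 lower and sums of 192.6 to 199.0 FPKM in wild-type libraries and 189.5 to 199.9 FPKM in cKO.

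Kif20a (chromosome 18, 34624613 to 34633277, plus strand, mm10), a kinesin-6 that brings the chromosomal passenger complex to the central spindle, stood at 21, 20.1 and 20.04 FPKM in wild-type libraries and 24.3, 25.2 and 24.8 FPKM in cKO. All 3 cKO libraries lay above all 3 wild-type libraries. The log2 difference was 0.28 (SE 0.0406, 95% interval 0.18 to 0.37, limma adjusted p = 0.00453), a 1.21-fold higher level. Kif23 (chromosome 9, 61915905 to 61946774, minus strand), the kinesin-6 of the centralspindlin complex, stood at 12.27, 12.03 and 11.96 FPKM in wild-type libraries and 9.19, 9.94 and 9.58 FPKM in cKO. Every cKO library was below every wild-type library. The log2 difference was -0.33 (SE 0.0484, 95% interval -0.45 to -0.22, limma adjusted p = 0.00431). Read as a ratio within each library, Kif20a over Kif23 was 1.71, 1.67 and 1.68 in wild type and 2.64, 2.53 and 2.58 in cKO. That ratio varied little among libraries of a genotype, with SDs of 0.0214 and 0.0535 about means of 1.69 and 2.59. The pair was chosen after its values were seen and its ratio is given without a test. The exons of Kif20a overlap those of Cdc23 on the other strand over 29.3% of their length; the strand setting of the counting is not given, and Cdc23 stood at 10.01 FPKM in wild-type libraries and 10.23 FPKM in cKO.

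Kifc1 (chromosome 17, 33875659 to 33890661, minus strand), a minus-end-directed kinesin-14 that focuses spindle poles, stood at 10.8, 11.1 and 10.3 FPKM in wild-type libraries and 12.96, 12.12 and 12.35 FPKM in cKO. The cKO libraries were all higher. The log2 difference was 0.22 (SE 0.050, 95% interval 0.10 to 0.33, limma adjusted p = 0.025), and the call was lost without any one wild-type library and without cKO replicate 1 or 3. Of its 50-base windows, 38.6% also occur in Kifc5b, a close copy, so fragments could be split between them: the sum of both was 17.2, 17.7 and 17.3 FPKM in wild-type libraries and 20.7, 19.4 and 18.3 FPKM in cKO, with no overlap. Kif15 (chromosome 9, 122951046 to 123018733, plus strand), a kinesin-12 that helps hold the spindle bipolar, stood at 3.49, 3.71 and 3.86 FPKM in wild-type libraries and 3.012, 3.004 and 2.975 FPKM in cKO. All cKO values were lower, and they had an SD of 0.0195 FPKM. The log2 difference was -0.29 (SE 0.0765, 95% interval -0.46 to -0.11, limma adjusted p = 0.0391), a call lost when any single library was left out.

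Kif11, the kinesin-5 that pushes spindle poles apart, did not pass. Its values were 16.7, 15.8 and 16.4 FPKM in wild-type libraries and 15.9, 17.0 and 17.1 FPKM in cKO, overlapping, with a log2 difference of 0.03 (SE 0.0477, 95% interval -0.08 to 0.14, limma adjusted p = 0.696). Kif2c, a kinesin-13 that takes apart microtubule ends at centromeres, was at 15.26, 16.23 and 15.97 FPKM in wild-type libraries and 16.7, 16.6 and 18.1 FPKM in cKO. Its cKO values were all higher, and the log2 difference of 0.11 (SE 0.0504) missed the threshold (limma adjusted p = 0.173). The remaining 8 tested spindle members ranged from -0.23 (Kif18a, a kinesin-8 that limits chromosome oscillation) to 0.13 (Kif4, a chromokinesin) on the log2 scale. Of the spindle sum, Kif20a took 15.9% in wild type and 18.7% in cKO, Kif23 9.42% and 7.25%, and Kif11 12.7% and 12.6%.

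Promoter sequence is shown for Kif23 and Kif15, which fell, for Kifc1, which rose, for Kif11, which did not pass, and for 2 risers of other roles, because many late cell-cycle genes carry a CCAAT box and the hexamer TTTGAA close to their start. RefSeq windows of build GRCm38.p6, from 250 bases before the start to 30 after it, were matched to 33 of the 43 symbols, with no entry for Kif20a. In the lines below, 130 bases from 100 before the start are printed 5′ to 3′ on the gene's strand, with matches in capitals. Capitals mark CCAAT, which reads ATTGG when it lies on the opposite strand, and the hexamer TTTGAA, which then reads TTCAAA. Kif23 comes from chr9:61946770-61946899, minus strand; Kif15 from chr9:122950981-122951110, plus strand; Kifc1 from chr17:33890604-33890733, minus strand. Kif11 comes from chr19:37376282-37376411, plus strand, Kif26a from chr12:112146108-112146237, plus strand, and Kif1c from chr11:70700448-70700577, plus strand.
Kif23: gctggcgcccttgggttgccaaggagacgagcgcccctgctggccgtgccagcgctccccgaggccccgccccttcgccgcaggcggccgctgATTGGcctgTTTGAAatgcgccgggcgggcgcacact
Kif15: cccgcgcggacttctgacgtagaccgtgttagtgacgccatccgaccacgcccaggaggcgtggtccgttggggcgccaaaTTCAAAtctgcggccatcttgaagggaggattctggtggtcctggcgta
Kifc1: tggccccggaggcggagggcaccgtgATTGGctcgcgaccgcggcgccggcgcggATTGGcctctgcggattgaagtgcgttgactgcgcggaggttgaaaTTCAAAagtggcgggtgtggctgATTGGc
Kif11: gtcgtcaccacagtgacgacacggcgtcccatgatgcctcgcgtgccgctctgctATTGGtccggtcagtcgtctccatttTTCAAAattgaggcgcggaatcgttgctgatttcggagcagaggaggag
Kif26a: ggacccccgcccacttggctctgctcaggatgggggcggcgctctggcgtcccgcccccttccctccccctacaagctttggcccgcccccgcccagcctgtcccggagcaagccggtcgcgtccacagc
Kif1c: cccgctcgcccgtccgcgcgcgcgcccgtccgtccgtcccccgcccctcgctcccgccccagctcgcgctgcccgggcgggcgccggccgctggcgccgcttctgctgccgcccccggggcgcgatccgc
The hexamer was found in 10 of the 14 windows of spindle members, in none of the 11 of transport members and in 2 of the 8 of ciliary and signalling members, against 17.2% of 32851 RefSeq windows. CCAAT was found in 9, 3 and 4 of these windows, against 36.1%, and both words in 7, 0 and 2, against 6.40%. Some windows lie far from the gene's start in GENCODE: Kif14 by 1505 bases, Kif2c by 3867, Kif27 by 4175 and Kif17 by 11816. The counts include the hexamer in the windows of Kif14, Kif2c and Kif27, and both words in those of Kif14 and Kif27. Both words stand near the start of Kif23, which fell, of Kifc1, which rose, and of Kif11, which did not pass. By call, the hexamer was in 3 of the 4 windows of kinesins that fell and in 1 of the 5 that rose. Both words were in 2 and 1 of these, with the far window of Kif27 counted. So few windows cannot show whether the letters go with a direction, and this was not tested. Kif15 has the hexamer 19 bases before its start and no CCAAT in its window. The windows of Kif26a and Kif1c hold neither word. A match is a description of letters and not of a bound site.

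Among the cargo transport motors, 4 of 17 tested rose (Kif1c, Kif1a, Kif13a and Kifc3), none fell and 13 did not pass. That is 23.5% that rose, against 7.65% of all genes tested. After correction for GC content and length, only Kif1c of the 17 rose, while 1511 of all 17667 genes tested did. The median log2 difference was 0.14, against 0.00 over all genes tested. In 9 of the 17 every cKO library lay above every wild-type library, and in 2 every one lay below. The genotypes thus did not overlap for 64.7% of them, against 36.9% of all genes tested. The summed level of the transport motors was 147.5 ± 1.93 FPKM in wild-type libraries and 159.7 ± 1.56 FPKM in cKO (SD, n = 3). Beside them, 5 of 6 fibroblast genes rose, with sums of 431.4 to 439.4 FPKM in wild type against 521.7 to 540.0 FPKM in cKO, and 5 of 9 endothelial genes, with sums of 42.4 to 46.4 against 63.3 to 68.2 FPKM. Of 6 macrophage genes 3 rose and none fell, with sums of 105.1 to 110.4 against 139.7 to 152.1 FPKM. Neuron and Schwann cell genes did not rise in any of the 8 tested, and 1 fell. Of 5 peritubular myoid genes none rose and 2 fell, with sums of 591.6 to 617.6 against 500.3 to 528.8 FPKM. Of 5 erythroid genes none rose and 3 fell, and of 5 Leydig cell genes 1 rose and none fell. The part of other cell types in the kinesin values was not tested.

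Kif1c (chromosome 11, 70700548 to 70731964, plus strand), a kinesin-3 that carries vesicles and integrins, stood at 19.8, 19.7 and 18.4 FPKM in wild-type libraries and 25.2, 24.3 and 23.9 FPKM in cKO. The groups were well apart. The log2 difference was 0.34 (SE 0.0463, 95% interval 0.23 to 0.45, limma adjusted p = 0.00345), a 1.27-fold higher level. Its close relative Kif1b, a carrier of synaptic vesicle precursors and mitochondria, was at 7.95, 8.11 and 8.39 FPKM in wild-type libraries and 7.11, 7.76 and 8.11 FPKM in cKO, and did not pass (log2 -0.09). The ratio of Kif1c to Kif1b was 2.37 ± 0.157 in wild type and 3.21 ± 0.31 in cKO (SD, n = 3). It too was chosen after the values were seen and carries no test.

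The other 3 transport members that rose were called less firmly. Kif1a (chromosome 1, 93015464 to 93101951, minus strand), a fast kinesin-3 of vesicle transport, stood at 7.26, 7.06 and 6.93 FPKM in wild-type libraries and 8.19, 8.36 and 7.92 FPKM in cKO (log2 0.20, SE 0.0515, limma adjusted p = 0.0356). Kif13a (chromosome 13, 46749087 to 46929867, minus strand), a kinesin-3 of endosomal traffic, stood at 3.33, 3.42 and 3.64 FPKM in wild-type libraries and 4.11, 4.31 and 4.29 FPKM in cKO (log2 0.28, SE 0.0722, limma adjusted p = 0.0345). Kifc3 (chromosome 8, 95099828 to 95202812, minus strand), a minus-end-directed kinesin-14 found at cell junctions, stood at 2.77, 2.83 and 3.14 FPKM in wild-type libraries and 4.07, 3.46 and 3.70 FPKM in cKO (log2 0.35, SE 0.0928, limma adjusted p = 0.0403). In each of the 3 the groups did not overlap. After correction for GC content and length none of them passed, and the log2 difference of Kif1a was then 0.10 and that of Kifc3 0.24. Kif1a was also lost without any one library, Kif13a without any one wild-type library and without cKO replicate 2 or 3, and Kifc3 without any one wild-type library and without cKO replicate 1 or 3.

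Kif5b stood at 24.9, 27.4 and 27.6 FPKM in wild-type libraries and 28.4, 30.2 and 29.2 FPKM in cKO. Its groups did not overlap, but the log2 difference of 0.14 (SE 0.0516, 95% interval 0.02 to 0.26) missed the threshold (limma adjusted p = 0.111). Kif3a, a subunit of the heterotrimeric kinesin-2 that drives outward transport in cilia, overlapped between genotypes, at 20.9, 19.9 and 20.9 FPKM in wild-type libraries and 20.4, 20.6 and 20.8 FPKM in cKO (log2 0.00, 0.003539 before rounding, 95% interval -0.09 to 0.10, limma adjusted p = 0.961). Kif3b, its partner, was at 10.9, 10.9 and 11.9 FPKM in wild-type libraries and 12.3, 13.2 and 12.8 FPKM in cKO, higher in every library and just short of the threshold (log2 0.18, limma adjusted p = 0.0568). The ratio of Kif3a to Kif3b was 1.83 ± 0.0867 in wild type and 1.62 ± 0.0472 in cKO (SD, n = 3), without overlap and without a test. Kif21a, a kinesin-4 that restrains microtubule growth, was at 11.99, 13.59 and 14.14 FPKM in wild-type libraries and 12.95, 12.49 and 12.86 FPKM in cKO, overlapping (log2 -0.05, SE 0.0647, 95% interval -0.20 to 0.10, limma adjusted p = 0.658). The other 8 transport members that did not pass lay between -0.15 (Kif17, a motor of dendritic transport and cilia) and 0.35 (Kif3c, a further kinesin-2 subunit) on the log2 scale. Kif3c, Kif5c and Kif21b were higher in every cKO library, Kif17 and Kif16b lower in every one, and Kif5a, Kif13b and Kifc2 overlapped.

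**Figure D3:**
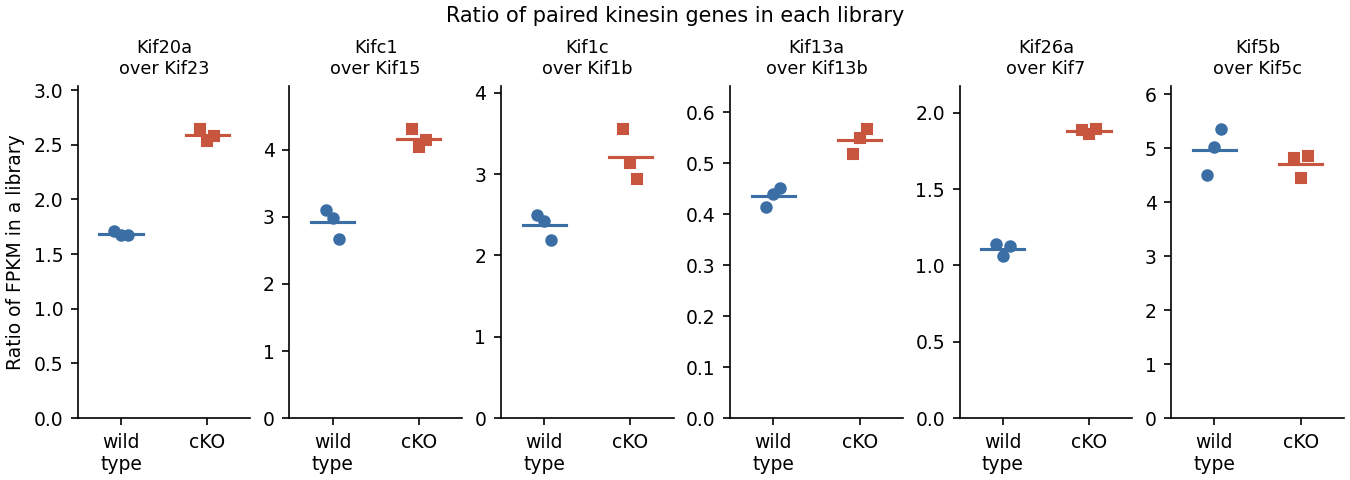
Ratio of FPKM of paired kinesin genes in each library (y axis, starting at 0), one panel a pair, with wild type and cKO on the x axis, points for libraries and bars for means. Kif20a over Kif23 and Kif26a over Kif7 separate by genotype with little spread, while Kif5b over Kif5c overlaps. Pairs were chosen after the values were seen, and no ratio was tested.

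Of the ciliary, flagellar and signalling motors, 8 were tested: Kif26a rose, Kif9 and Kif27 fell and 5 did not pass. Of these 8, 37.5% changed, against 15.5% of all genes tested. The median log2 difference was 0.02, since the members went opposite ways. Kif26a (chromosome 12, 112146208 to 112181747, plus strand) is an atypical kinesin-11 known in enteric neurons for restraining signalling through the GDNF receptor Ret. Its level was 8.20, 8.10 and 8.06 FPKM in wild-type libraries and 14.7, 14.8 and 14.4 FPKM in cKO, 8.12 ± 0.0735 against 14.6 ± 0.231 (SD, n = 3), from 890 to 1671 fragments a library. The distance between the groups was many times the spread within either. The log2 difference of 0.84 (SE 0.043, 95% interval 0.74 to 0.94, limma adjusted p = 8.2e-05) is a 1.79-fold higher level. It ranged from 0.70 with the correction for GC content and length to 0.86. Among the 6922 genes tested with a mean of 5 to 30 FPKM, 1 had a larger rise, and among all 17667 there were 51; these counts were made after its value was seen. Ret, a marker in the list of undifferentiated spermatogonia, was at 5.13 ± 0.233 FPKM in wild-type libraries and 7.14 ± 0.416 FPKM in cKO (SD, n = 3; log2 0.47, limma adjusted p = 0.00408). The relative Kif26b was close to absent at 0.0623 to 0.135 FPKM.

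Kif7, the kinesin-4 that organises the tip of the primary cilium in Hedgehog signalling, did not pass. It was at 7.20, 7.64 and 7.14 FPKM in wild-type libraries and 7.82, 7.96 and 7.60 FPKM in cKO, overlapping (log2 0.09, SE 0.0536, 95% interval -0.03 to 0.21, limma adjusted p = 0.304). Kif26a and Kif7 were nearly level in wild type, with ratios of 1.14, 1.06 and 1.13. In cKO they were unequal, with ratios of 1.89, 1.86 and 1.89. This pair too was chosen after its values were seen, and its ratio carries no test.

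The ciliary motors that fell are both tied to motile cilia or flagella. Kif6, a kinesin-9 like Kif9, and Kif19a belong to the same role group and did not pass (log2 0.08 and 0.29, limma adjusted p = 0.756 and 0.439). Kif9 (chromosome 9, 110476958 to 110525179, plus strand), a kinesin-9 of the central pair of the sperm flagellum, stood at 1.67, 1.96 and 1.85 FPKM in wild-type libraries and 0.866, 1.31 and 0.879 FPKM in cKO, from 61 to 140 fragments. All cKO libraries were lower, cKO replicate 2 less so than the others. The log2 difference of -0.80 (SE 0.174, 95% interval -1.21 to -0.40, limma adjusted p = 0.0193) was the largest fall among the tested kinesins, and leaving out wild-type replicate 2 or 3 or cKO replicate 3 ended the call. Kif27 (chromosome 13, 58287502 to 58359122, minus strand), a relative of Kif7 needed for motile cilia, stood at 3.55, 3.35 and 3.41 FPKM in wild-type libraries and 2.56, 2.96 and 2.76 FPKM in cKO. Its cKO libraries were all lower (log2 -0.31, SE 0.0861, 95% interval -0.51 to -0.11, limma adjusted p = 0.047), and the call was lost without any one library. Kif24, a kinesin-13 that acts on the mother centriole, was at 3.39, 3.51 and 3.59 FPKM in wild-type libraries and 2.58, 2.99 and 3.06 FPKM in cKO, lower in every library but not past the threshold (log2 -0.27, SE 0.091, limma adjusted p = 0.0792). Beside these, none of 5 tested multiciliated cell genes passed, and their sums were 10.5 to 13.9 FPKM in wild-type libraries and 8.16 to 9.62 FPKM in cKO. The meiotic germ cell genes fell, as given above, and their part in the values of Kif9 and Kif27 was not tested.

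**Figure D4:**
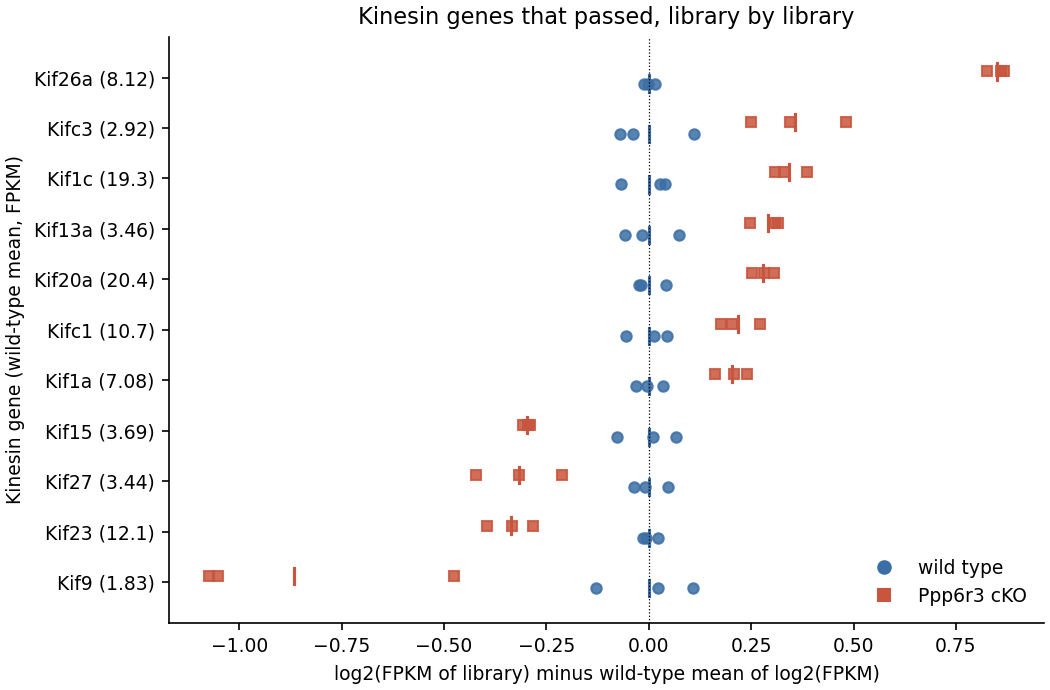
Each library's log2(FPKM) minus the wild-type mean (x axis) for the 11 kinesin genes that changed (y axis, wild-type mean FPKM in brackets), with wild-type libraries as circles, cKO libraries as squares and group means as bars. The groups are apart for all 11, widest for Kif26a and Kif9, and the cKO libraries of Kif9 are the most spread.

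The change of kinesins went with their GC content. The 7 that rose had a median transcript GC content of 56.3% (48.9 to 61.8%), the 4 that fell 46.5% (42.0 to 49.4%) and the 29 others 50.2%. Over all genes tested, the median log2 difference went from -0.05 in the lowest of 10 equal bins by GC content to 0.09 in the highest, and the share that rose from 2.32% to 15.7%. In cKO replicate 1 the median deviation from the mean of the 6 libraries went from -0.11 to 0.13 over the same bins. The slope was not shared by the other cKO libraries: replicate 2 went from 0.011 to 0.025 and replicate 3 from 0.037 to -6.2e-06. Wild-type replicates 1, 2 and 3 went from 0.009 to -0.024, from 0.025 to -0.037 and from 0.057 to -0.064. With GC content and length corrected, Kif26a, Kif20a, Kif1c and Kifc1 rose, and Kif23, Kif15, Kif27, Kif9 and Kif24 fell.

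**Figure D5:**
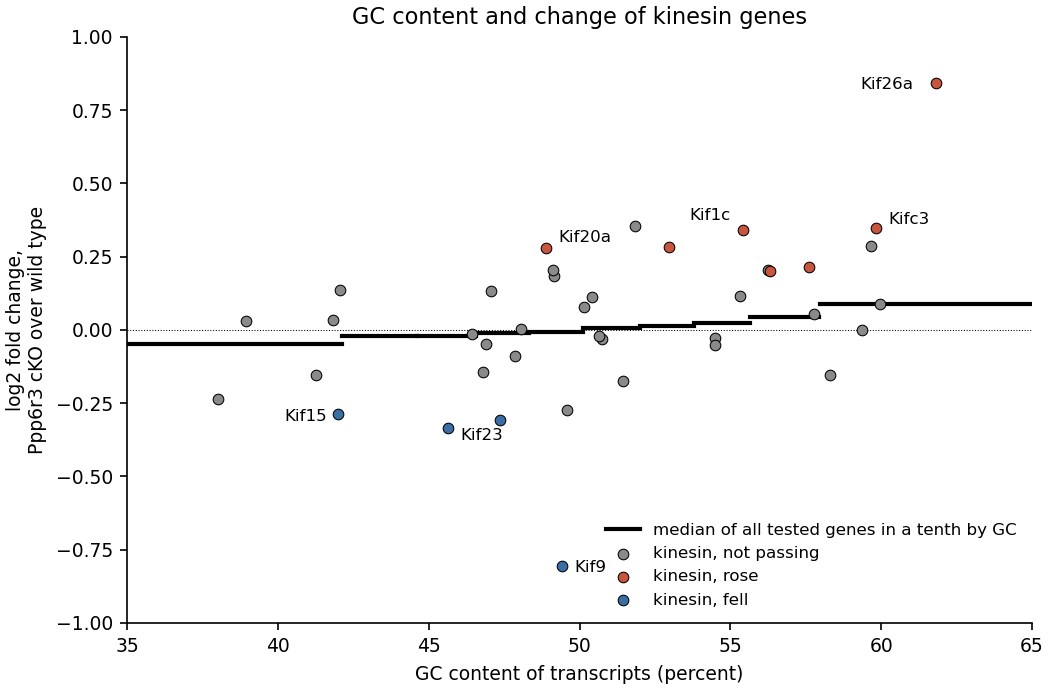
Log2 difference of each tested kinesin gene (y axis) against the GC content of its transcripts in percent (x axis), coloured by call, with black steps for the median of all tested genes in each of 10 bins by GC content. Kinesins that rose lie to the right of those that fell, apart from Kif20a at 48.9%, and Kif26a and Kif9 lie far from the steps.

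Genes that work with kinesins were read from lists in the same fit. Of 18 light chains and cargo adaptors, Kif1bp included, 1 rose and 3 fell, so 22.2% changed against 15.5% of all genes tested. The kinesin-1 light chains Klc1 and Klc4 did not pass (log2 0.03 and 0.02), Madd, an adaptor of Kif1a and Kif1b cargo, fell by 0.60 on the log2 scale (limma adjusted p = 0.00393), and Arl8b, the lysosomal GTPase that recruits kinesin-1, fell by 0.36 (limma adjusted p = 0.012, lost without wild-type replicate 2). The scaffolds Mapk8ip3 and Mapk8ip1 went opposite ways, with log2 differences of -0.25 and 0.37 (limma adjusted p = 0.0143 and 0.0207); the former was lost without wild-type replicate 1 or 3, the latter without wild-type replicate 2 or 3. Kif1bp, which binds several kinesins, was at 9.04, 9.72 and 10.2 FPKM in wild-type libraries and 9.40, 9.15 and 9.93 FPKM in cKO, overlapping. Cenpe and Stard9, kinesins named otherwise, did not pass (log2 -0.09 and -0.05).

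Of 18 intraflagellar transport genes, whose products are the cargo trains of kinesin-2, none rose and 4 fell (22.2% against 7.83% of all genes tested), with a median log2 difference of -0.12. Ift88 had 7.94, 7.68 and 8.25 FPKM in wild-type libraries and 5.77, 6.11 and 5.85 FPKM in cKO, without overlap, and fell by 0.42 on the log2 scale (limma adjusted p = 0.00309). Ift74, Ift81 and Ift122 fell by 0.36, 0.34 and 0.30, and each was lost without at least 1 wild-type library. The calls of Ift74 and Ift81 were also lost after correction for GC content and length. Of 20 partners of spindle kinesins 15.0% changed: Numa1 rose (log2 0.19) and Cep55 and Ckap5 fell (log2 -0.22 and -0.17), each lost without wild-type replicate 2 or 3 among others. Of 19 genes of dynein and dynactin, the motor of the opposite direction, 10.5% changed: Bicd2 rose (log2 0.28) and Dctn5 fell (log2 -0.18), both lost without any one wild-type library. Numa1 and Dctn5 were also lost after correction for GC content and length.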

How the data were processed

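The authors deposited 1 table of FPKM values for 6 libraries, although its name speaks of raw counts; no unused sample columns were left. Alignment of the paired-end reads used HISAT2 2.0.5 and mm10, and DESeq2 was among the tools, per the submitters' processing notes and design text; the counter, its strand setting and the annotation release are not given in the sources used here. Libraries came from a stranded kit, per the labels' protocols. With exon lengths of GENCODE M21, whole fragments were recovered for 31625 of 32589 genes above 0 (97.0%, tolerance 0.01 of a fragment) and for 948 with another length; 16 were not recovered. Genes with at least 10 fragments in at least 3 libraries were tested with limma 3.58.1 in R 4.3.3 (trend and robust, two-sided) on log2(FPKM + 0.1), with Benjamini-Hochberg adjustment over all 17667 genes; folds on this scale understate changes of low genes. The script was tested on simulated data. Tables and figures used Python 3.11.15 with numpy 2.4.6, pandas 2.3.3 and matplotlib 3.10.9. A permutation of 3 against 3 libraries cannot go below p = 0.1, so none was used. Between replicates of a group, the chi-square per degree of freedom of their counts was 2.23 to 4.35, so no library repeated another. Members in full are those that passed, Kif26a and up to 4 of the most abundant of each role. The members and lists were chosen with earlier results of these data known. Of 169 listed partner and marker symbols, Meiosin was not found.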

Additional observations from a re-analysis of the deposited data

How the results depend on the processing

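Counts of genes past the threshold depended on the settings. Over all genes, 2735 changed (1352 rose, 1383 fell). With no filter on low values 1507 changed (740 rose, 767 fell), and voom on recovered fragments gave 4075 changed, of which 2141 fell. The correction for GC content and length gave 3274 changed (1511 rose, 1763 fell). Leaving out single libraries gave 1264 to 2456 changed, 619 to 1144 that rose and 645 to 1312 that fell. Of kinesins, 7 rose and 4 fell. There were 12 and 7 with voom, 3 and 1 with no filter, 4 and 2 with the replicate block, 4 and 5 with the correction for GC content and length, and 3 and 2 with that correction and the replicate block. With single libraries left out, 3 to 5 rose and 1 to 2 fell. Median-ratio scaling, a minimum of 0.5 FPKM and pseudocounts of 0.01 and 1 kept the kinesin counts within 1.5 times. No kinesin that passed changed sign in any alternative. Library numbers did not pair: the deviations of libraries with the same number correlated at 0.016, -0.007 and -0.006, so a call lost under the block is not read as a weaker effect. Members with few fragments, such as Kif9, have the widest intervals, and Kif28, Kif12 and Kif2b could not be tested at this depth.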

Other observations

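Some loci carry a kinesin name but fall outside the set. The pseudogenes Kif22-ps, Kif4-ps and Kifc5c-ps were listed at 0 in all 6 libraries, and Kif16bos, antisense to Kif16b, had 0 to 7 fragments. Kifap3, which codes for the third subunit of heterotrimeric kinesin-2, was at 7.96 ± 0.415 FPKM in wild-type libraries and 8.28 ± 0.439 FPKM in cKO (SD, n = 3), overlapping, with a log2 difference of 0.06 (limma adjusted p = 0.578).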
